A study of Mus musculus with 6 samples.

Results

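The genes described here are the collagens, the laminins, the matrix metalloproteinases (MMPs), the ADAM and ADAMTS families, the tissue inhibitors of metalloproteinases (TIMPs) and 8 further matrix or stromal genes (*Fn1*, *Sparc*, *Dcn*, *Lum*, *Bgn*, *Lox*, *Tgfb1* and *Acta2*). They were picked by gene symbol. The rule found 81 genes, read by 111 probe sets, among the 8251 genes that the platform annotation ties to a probe set with 1 symbol. Where a gene had several probe sets, the one with the highest mean over the 6 arrays was taken. Of the 81 genes, 31 were collagens, 9 laminins, 13 MMPs, 3 TIMPs, 16 ADAMs and 1 an ADAMTS (*Adamts1*).

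LIRKO livers (IR flox/flox albumin:CRE +) lack the insulin receptor in cells that express Cre from the albumin promoter, which is active in hepatocytes. Flox livers (IR flox/flox albumin:CRE -) came from littermates, which carry the same floxed alleles without Cre. All mice were male, were 2 to 3 months old per the labels, had a mixed genetic background, ate chow ad libitum and were not fasted. There were 3 LIRKO and 3 Flox arrays (Affymetrix mouse genome), with a pool of RNA from 2 to 3 mice on each, so replicate error here is the variation among pools. The deposited log2 values come from robust multichip averaging (RMA), and a difference of 1 is a change of 2-fold.

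The extracellular matrix of liver consists of fibrillar collagens around vessels and portal tracts, basement membrane components such as type IV collagen and laminins, and glycoproteins and proteoglycans that bind them. In liver, stellate cells, portal fibroblasts and endothelial cells make most of the collagen, whereas hepatocytes, the cells that lack the receptor in LIRKO mice, make plasma proteins and part of the fibronectin. MMPs, ADAMTSs and part of the ADAMs are zinc proteases that cut matrix or membrane proteins, and TIMPs bind and inhibit many of them. Other ADAMs lack protease activity. Fewer cells of a type and less RNA per cell cannot be told apart in whole liver RNA.

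The arrays differed in ways that touch every gene below. When all probe sets were split into 10 groups by Flox level, the top group lay 1.09 below Flox on LIRKO 2 and 0.89 below on LIRKO 3, and the bottom group 0.23 and 0.15 above. On LIRKO 1 these groups lay 0.01 and 0.03 below Flox. The 9 probe sets for hybridization controls, which are added to the sample and do not come from liver, read 1.08 and 0.96 above the Flox mean on LIRKO 2 and LIRKO 3, and 0.25 below it on LIRKO 1. Because LIRKO 2 and LIRKO 3 stood apart in this way, LIRKO 1 is also given alone. Hepatocyte markers were present on every array: *Alb* lay between 14.00 and 14.17 on LIRKO arrays and between 14.18 and 14.25 on Flox arrays. Of 10 such markers 9 were below Flox, with a median difference of -0.61, and their mean level was 12.33, 11.13 and 11.32 on LIRKO arrays and 12.31, 12.24 and 12.28 on Flox arrays. A sign of RNA quality also moved with LIRKO 2 and LIRKO 3: the 3' minus 5' difference of the *Gapdh* control probe sets was 0.32, 0.67 and 0.44 on LIRKO arrays and 0.29 to 0.34 on Flox arrays, and that of *Actb* was 0.47, 0.68 and 0.54 on LIRKO arrays and 0.38 to 0.52 on Flox arrays. The single probe set of *Insr*, the deleted gene, was dim and did not check the labels, since its place relative to the deleted part is not known here; it read 5.37, 5.99 and 6.06 on LIRKO arrays and 5.45, 5.22 and 5.38 on Flox arrays. The part that the shift of LIRKO 2 and LIRKO 3 plays in each difference was not tested.

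None of the 81 genes passed limma at a Benjamini-Hochberg adjusted p under 0.05 in either direction, where 0.0606% of all genes passed as higher in LIRKO and 0.0606% as lower. The smallest adjusted p among the 81 was 0.237. At an unadjusted p under 0.05, 12 of the 81 were higher in LIRKO (14.8%, against 7.13% of all genes) and 5 were lower (6.17%, against 15.6% of all genes). After cyclic loess between arrays, too, 0 of the 81 were called higher (0.218% of all genes) and 0 lower (0.17% of all genes). By the methods' t-test, an unequal variance test of each probe set, 3 were higher (2.46% of all genes) and 2 lower (3.71% of all genes) before adjustment, and 0 after it. Every LIRKO array lay above every Flox array at 12 of the 81 genes (14.8%, against 9.65% of all genes) and below every Flox array at 4 (4.94%, against 16.7% of all genes). The 4 lower genes were *Col3a1*, *Adam28*, *Lama3* and *Lama5*. Of the 12 higher genes, 9 had a mean level below the median of all tested probe sets. Of the 37 genes at or above that median, 3 lay above all Flox arrays and 3 below. Of all 4794 genes at or above it, 410 lay above and 1049 below.

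The median difference, LIRKO minus Flox, was 0.10 over the 81 genes and -0.01 over all genes, and single genes ran between -0.97 and 1.33. For single arrays it came to 0.01 (LIRKO 1), 0.20 (LIRKO 2) and 0.14 (LIRKO 3). On LIRKO 1, 70 of the 81 genes lay within 0.25 of the Flox mean, as did 6840 of all 8251 genes. Without LIRKO 1, limma called 27 of the 81 genes higher (20.7% of all genes were) and 7 lower (30.0% of all genes were). The 27 included *Col1a2*, *Adam5*, *Lamb3*, *Lama4*, *Mmp2*, *Mmp9* and *Mmp14*, and the 7 were *Col3a1*, *Col18a1*, *Fn1*, *Bgn*, *Lama3*, *Adam9* and *Adam28*. Many of the genes had low signals: 44 of the 81 had a mean below the median of all tested probe sets (6.63), and are called dim here, since the deposited values hold no detection calls. The dim genes were 12 of 31 collagens, 6 of 9 laminins, 11 of 13 MMPs, 10 of 16 ADAMs, 4 of the 8 further genes and *Adamts1*, and none of the 3 TIMPs.

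**Figure D1:**
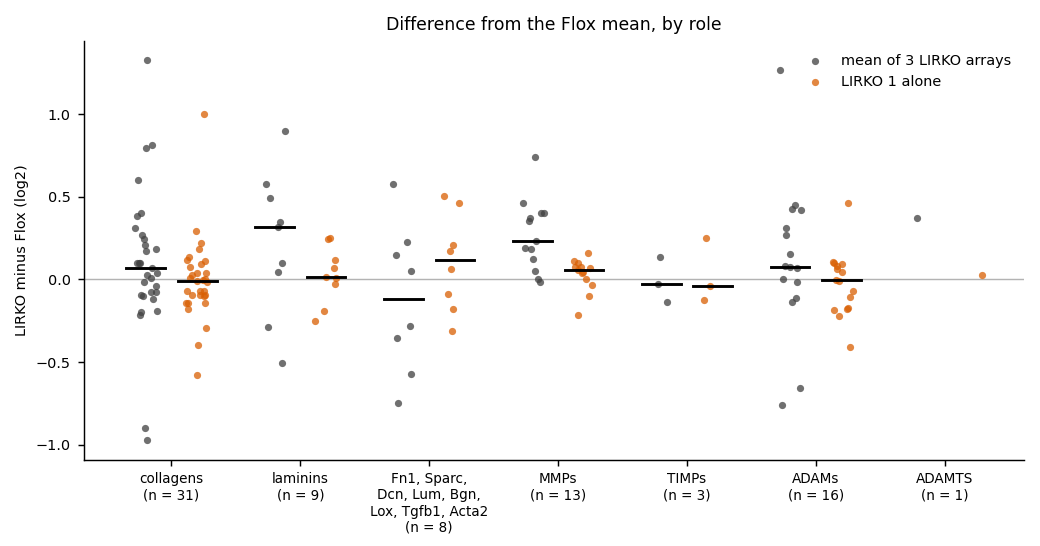
Difference from the Flox mean (log2, vertical axis) for each of the 81 genes by role, with grey points for the mean of the 3 LIRKO arrays and orange points for LIRKO 1 alone; black lines are medians. The laminins and MMPs have medians of 0.32 and 0.23 over the 3 arrays, against 0.02 and 0.06 on LIRKO 1, where most points lie near 0.

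The fibrillar collagens are the main load-bearing fibres of connective tissue, and in liver types I and III are made chiefly by stellate cells and fibroblasts. *Col3a1*, which encodes the chain of type III collagen, had the smallest p of the 81 genes. It read 7.79, 7.41 and 7.19 on LIRKO arrays 1 to 3, against 8.29, 8.57 and 8.23 on Flox arrays 1 to 3 (probe set 98331_at). Each LIRKO array lay below each Flox array. The difference was -0.90 (SE 0.18, 95% interval -1.34 to -0.46), with an unadjusted p of 0.0019 and an adjusted p of 0.237 from limma. On LIRKO 1 alone it was -0.58, and *Col3a1* was the only one of the 81 genes that lay both below all Flox arrays and more than 0.5 below their mean on LIRKO 1 (1.23% of the 81, against 1.5% of all genes). It was 0.62 lower than the median difference of probe sets of like level in Flox, and -0.76 after cyclic loess between arrays (adjusted p = 0.146 from limma). Without LIRKO 1 it was among the genes called lower. The other probe sets of *Col3a1* were dim, between 3.50 and 4.15 on all arrays, and differed by 0.13 and -0.04.

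The promoter of *Col3a1* is shown as the start region of the gene with the smallest p, and that of *Col1a2* as the start region of the collagen with the largest positive difference. Each runs 250 bases before to 50 bases after the annotated start, on build GRCm38.p6 in RefSeq: chr1:45311288-45311587 (+ strand) for *Col3a1* and chr6:4505368-4505667 (+ strand) for *Col1a2*. Capitals mark the letters TATAAA, the core of the TATA box, CCAAT, a box bound by the factor NF-Y, and GGGCGG, the GC box, each searched on both strands.
Col3a1: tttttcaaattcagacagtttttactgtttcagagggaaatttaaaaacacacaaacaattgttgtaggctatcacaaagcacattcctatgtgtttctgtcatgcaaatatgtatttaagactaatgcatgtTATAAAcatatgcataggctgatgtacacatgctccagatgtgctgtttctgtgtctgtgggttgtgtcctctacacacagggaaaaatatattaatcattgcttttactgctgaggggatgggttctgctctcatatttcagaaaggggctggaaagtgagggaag
Col1a2: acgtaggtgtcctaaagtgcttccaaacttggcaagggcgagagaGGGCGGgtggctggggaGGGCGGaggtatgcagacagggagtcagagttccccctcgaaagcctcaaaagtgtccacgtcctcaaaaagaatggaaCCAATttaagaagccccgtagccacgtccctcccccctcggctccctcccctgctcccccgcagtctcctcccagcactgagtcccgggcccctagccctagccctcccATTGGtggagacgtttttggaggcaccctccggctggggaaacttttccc
The *Col3a1* window was 37.7% G and C with 1 TATAAA and none of the others, and the *Col1a2* window was 61.0% G and C with 2 CCAAT and 2 GGGCGG. RefSeq windows were found for 51 of the 81 genes, 59 windows in all. TATAAA was in 20.3% of them (13.6% of all 32851 windows), CCAAT in 33.9% (37.4%) and GGGCGG in 50.8% (35.7%). GTAAACA, the core sequence of FoxO and other forkhead sites, was in 5 of the 59 windows, 8.47% (3.65% of all windows). A match is a string of letters in a window and no measured binding.

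The probe sets of type I collagen disagreed. *Col1a2*, the alpha 2 chain of type I collagen, had the largest positive difference of the 81 genes on its brighter probe set, 161156_r_at. It read 8.36, 10.19 and 9.96 on LIRKO arrays, against 8.07, 8.35 and 8.11 on Flox arrays. The difference was 1.33 (SE 0.46, adjusted p = 0.237 from limma), with 0.18 on LIRKO 1, which lay just above Flox 2, so that each LIRKO array was above each Flox array. Its other probe set, 101130_at, read 6.64, 6.32 and 6.49 on LIRKO arrays, against 6.69, 7.06 and 6.85 on Flox arrays, and there each LIRKO array lay below each Flox array, by -0.38 on average.

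*Col1a1*, the alpha 1 chain, read 8.04, 8.23 and 8.35 on LIRKO arrays, against 8.01, 8.23 and 8.16 on Flox arrays (103709_at), and the groups overlapped at a difference of 0.07 (95% interval -0.24 to 0.39). Its dimmer probe set, 94305_at, read 6.28, 6.64 and 6.46 on LIRKO arrays, against 7.15, 6.87 and 6.74 on Flox arrays. On this probe set each LIRKO array was below each Flox array, by -0.46 on average and by -0.64 on LIRKO 1. *Col1a1*, *Col1a2* and *Col3a1* each had a probe set on which all LIRKO arrays were lower than all Flox arrays. These probe sets were singled out after their values were seen, and 1852 of all 12422 probe sets had this order. The brighter probe sets of *Col1a1* and *Col1a2* did not share it. On 161156_r_at of *Col1a2* and the dim 161984_f_at of *Col3a1*, each LIRKO array lay above each Flox array. None passed the adjusted threshold.

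**Figure D2:**
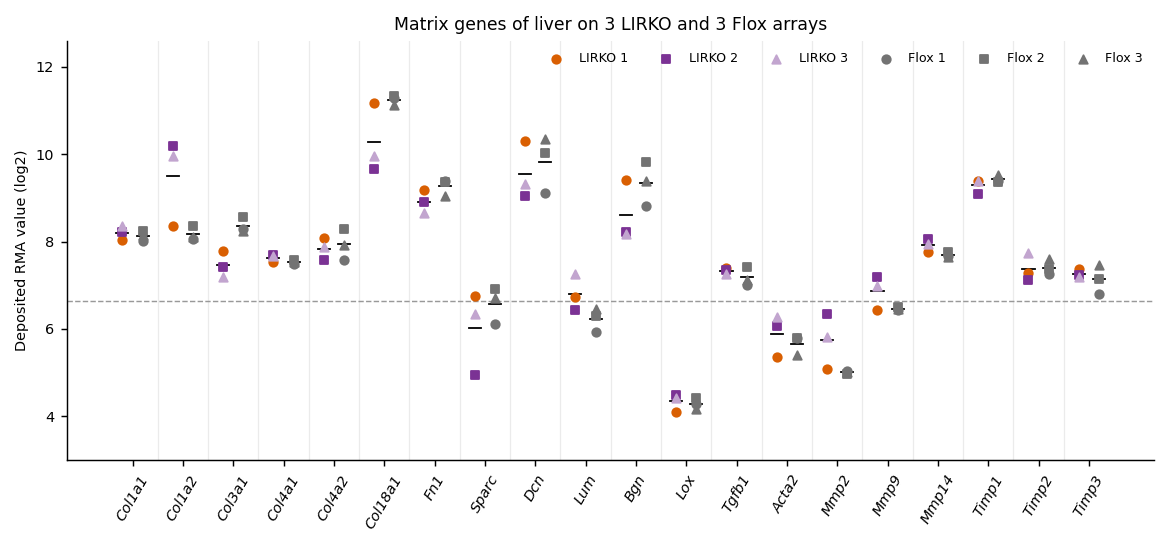
Deposited RMA value (log2, vertical axis) of 20 matrix genes on the 3 LIRKO arrays (coloured, left of each pair) and the 3 Flox arrays (grey, right), with black lines for group means and a dashed line at 6.63, below which a gene is called dim. For *Col3a1* all LIRKO points lie below all Flox points, and for *Col1a2* LIRKO 2 and LIRKO 3 stand far above the other 4 arrays.

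Types IV and XVIII collagen belong to basement membranes. *Col4a1* and *Col4a2*, whose chains form the common type IV network, lie head to head and share a promoter. Their annotated starts are 21 bases apart on GRCm38.p6, and the bases that lie in both promoter windows, chr8:11312777-11312854 (+ strand), are shown as the shared start region of this pair, with GGGCGG in capitals.
Col4a1 and Col4a2: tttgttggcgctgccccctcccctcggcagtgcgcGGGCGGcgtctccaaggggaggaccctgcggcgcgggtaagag
The groups overlapped for both genes of the pair. *Col4a1* read 7.52, 7.68 and 7.67 on LIRKO arrays, against 7.48, 7.58 and 7.52 on Flox arrays, a difference of 0.10 (95% interval -0.17 to 0.36). *Col4a2* read 8.07, 7.57 and 7.86 on LIRKO arrays, against 7.57, 8.30 and 7.93 on Flox arrays, a difference of -0.10 (95% interval -0.62 to 0.42) that turned to 0.01 after quantile normalization and 0.03 after cyclic loess. Flox 1 held the lowest Flox value of both.

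*Col18a1*, whose protein is the source of the fragment endostatin and which hepatocytes also express, read 11.17, 9.67 and 9.97 on LIRKO arrays, against 11.28, 11.34 and 11.12 on Flox arrays. LIRKO 1 lay inside the Flox values, and LIRKO 2 and LIRKO 3 lay far below them. The difference was -0.97 (SE 0.37, adjusted p = 0.237 from limma) and -0.07 on LIRKO 1. It was 0.32 lower than that of probe sets of like level. Of its 5 probe sets, 4 had negative differences, between -1.26 and -0.49, and the dimmest had 0.06.

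*Col5a2*, a chain of the type V collagen that is built into type I fibrils, was dim and singled out after its values were seen. It read 5.52, 4.31 and 4.35 on LIRKO arrays, against 4.49, 4.67 and 4.42 on Flox arrays. Only LIRKO 1 was high, by 1.00, and LIRKO 2 and LIRKO 3 lay below all Flox arrays. With LIRKO 2 and LIRKO 3 left out, so that the single LIRKO array was assumed to vary like the Flox arrays, *Col5a2* was the only one of the 81 genes that limma called higher (adjusted p = 0.015; 0.509% of all genes were called) and none was called lower (0.327% of all genes). *Col5a2* lies next to *Col3a1* in the RefSeq annotation, and on LIRKO 1 these neighbours differed in opposite directions.

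Among the other collagens, *Col19a1*, a dim member of the FACIT class chosen after its values were seen, read 4.80, 4.93 and 4.92 on LIRKO arrays, against 4.59, 4.62 and 4.51 on Flox arrays, with a difference of 0.31 (adjusted p = 0.237 from limma). *Col17a1*, a transmembrane collagen of hemidesmosomes, was 0.29 above the Flox mean on LIRKO 1, where it read 7.01, and LIRKO 2 and LIRKO 3 read 7.06 and 6.83, against 6.53, 7.02 and 6.63 on Flox arrays. Probe sets of *Col12a1* and *Col13a1* disagreed in sign, with -0.04 and -0.19 on the brighter ones and 0.58 and 0.28 on the others. *Col10a1*, *Col26a1* and *Col9a1*, chosen after their values were seen, differed by 0.79, 0.82 and 0.60 over 3 arrays and by -0.18, -0.14 and 0.04 on LIRKO 1. Type VI collagen, a microfibril of the interstitium, was read by *Col6a1*, *Col6a2* and *Col6a3*, likewise chosen after their values were seen, which differed by 0.04, -0.08 and -0.08. Of the 31 collagens 19 were above and 12 below Flox, with a median of 0.07.

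Laminins are the trimeric glycoproteins of basement membranes. *Lama4*, an alpha chain of vessel walls, was dim but higher on both of its probe sets. It read 6.17, 6.47 and 6.60 on LIRKO arrays, against 5.85, 6.04 and 5.87 on Flox arrays, and the groups did not overlap. The difference was 0.49 (SE 0.15, adjusted p = 0.237 from limma), 0.24 on LIRKO 1, and 0.70 on the dimmer probe set. *Lama3*, an alpha chain of epithelial laminins, read 6.16, 5.84 and 5.54 on LIRKO arrays, against 6.38, 6.38 and 6.30 on Flox arrays, and was also dim. *Lama5*, the alpha chain of many mature basement membranes, read 7.45, 7.25 and 7.54 on LIRKO arrays, against 7.60, 7.86 and 7.63 on Flox arrays. LIRKO lay below Flox for both, by -0.51 and -0.29, but the other probe set of *Lama5*, 161702_f_at, had a difference of 0.77. *Lamb3*, the beta chain that pairs with the *Lama3* chain, read 7.09, 8.64 and 8.04 on LIRKO arrays, against 6.95, 7.22 and 6.92 on Flox arrays (161188_f_at, 0.90), and its dim probe set 92759_at had -0.15. LIRKO 1 was inside the Flox values on the brighter probe set. *Lamc1*, the gamma chain shared by most laminins, was named after its values were seen and read 8.15, 9.18 and 8.94 on LIRKO arrays, against 8.08, 8.24 and 8.22 on Flox arrays. The 9 laminins had a median difference of 0.32 over the 3 LIRKO arrays and of 0.02 on LIRKO 1 alone.

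Fibronectin and the small proteoglycans bind and space the collagen fibres. *Fn1*, fibronectin, read 9.17, 8.90 and 8.66 on LIRKO arrays, against 9.38, 9.36 and 9.04 on Flox arrays. The difference was -0.35 (95% interval -0.76 to 0.06) and turned to 0.05 after cyclic loess. *Dcn*, the proteoglycan decorin, read 10.29, 9.04 and 9.31 on LIRKO arrays, against 9.12, 10.03 and 10.34 on Flox arrays. LIRKO 1 lay with Flox 2 and Flox 3, and Flox 1 lay with LIRKO 2 and LIRKO 3. The difference of -0.28 (95% interval -1.27 to 0.70) turned to 0.07 after quantile normalization, 0.24 after cyclic loess and 0.46 on LIRKO 1 alone. *Bgn*, biglycan, read 9.41, 8.22 and 8.17 on LIRKO arrays, against 8.82, 9.81 and 9.40 on Flox arrays (96049_at), a difference of -0.74, whereas its other probe set, 162347_f_at, had 0.65 with LIRKO 2 and LIRKO 3 high.

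*Lum*, the keratan sulfate proteoglycan lumican, read 6.73, 6.43 and 7.26 on LIRKO arrays, against 5.94, 6.30 and 6.44 on Flox arrays. It was dim, and LIRKO 1 and LIRKO 3 lay above all Flox arrays, while LIRKO 2 lay just below Flox 3. The difference was 0.58 (SE 0.24, adjusted p = 0.238 from limma) and 0.50 on LIRKO 1. *Lum* and *Col5a2* were the only 2 of the 81 genes above all Flox arrays and more than 0.5 above their mean on LIRKO 1, a share of 2.47% against 2.46% of all genes. *Dcn* and *Lum* are next to each other in the RefSeq annotation, and both were above the Flox mean on LIRKO 1.

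*Sparc*, a secreted protein that binds collagen, read 6.75, 4.93 and 6.34 on LIRKO arrays, against 6.11, 6.92 and 6.71 on Flox arrays. It was dim, LIRKO 2 alone was far below the rest, and the difference was -0.57 (95% interval -1.69 to 0.55). *Acta2*, smooth muscle actin and a sign of activated stellate cells, read 5.35, 6.06 and 6.26 on LIRKO arrays, against 5.79, 5.80 and 5.39 on Flox arrays, and the groups overlapped. The difference was 0.23 (95% interval -0.38 to 0.84), with LIRKO 1 at -0.31. *Lox*, lysyl oxidase, which crosslinks collagen, was dim, between 4.10 and 4.49 on LIRKO arrays and between 4.17 and 4.41 on Flox arrays, and its difference of 0.05 turned to -0.07 after quantile normalization. *Tgfb1*, the cytokine that drives collagen synthesis in stellate cells, read 7.39, 7.34 and 7.26 on LIRKO arrays, against 7.01, 7.43 and 7.12 on Flox arrays. Its difference was 0.15 (95% interval -0.19 to 0.48), inside the Flox spread.

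**Figure D3:**
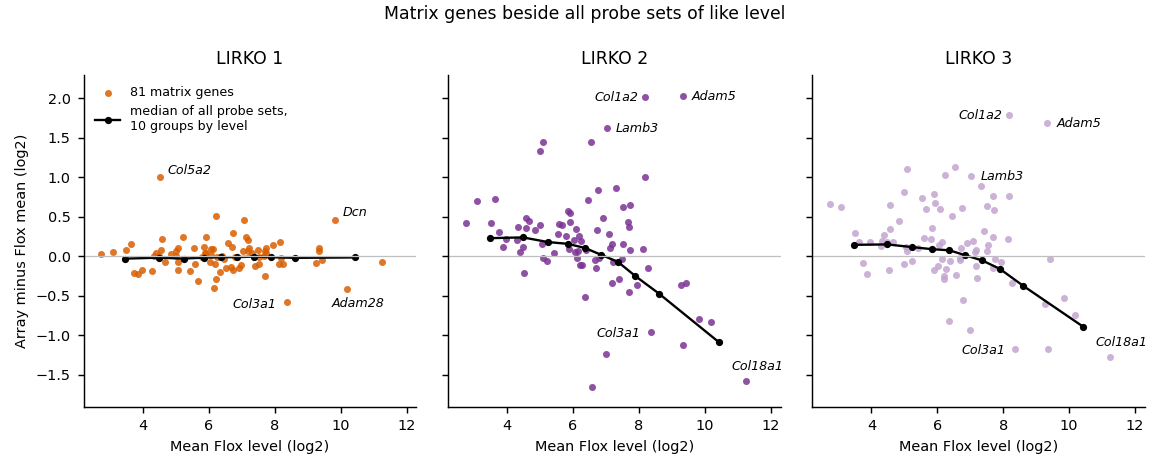
Difference of each LIRKO array from the Flox mean (log2, vertical axis) against the mean Flox level (log2, horizontal axis), with 1 panel per array, coloured points for the 81 genes and a black line for the median of all probe sets in 10 groups by level. The line is flat on LIRKO 1 and falls to -1.09 and -0.89 on LIRKO 2 and LIRKO 3, and *Col3a1* lies below it in all 3 panels.

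Of the 13 MMPs, 12 were above Flox and 1 below, with a median of 0.23. Taken by array, the MMP median was 0.06 for LIRKO 1, 0.38 for LIRKO 2 and 0.25 for LIRKO 3. At 7 of the 13 each LIRKO array lay above each Flox array, against 9.65% of all genes, and 6 of these 7 were dim (*Mmp2*, *Mmp3*, *Mmp7*, *Mmp10*, *Mmp12* and *Mmp17*, besides *Mmp14*). On LIRKO 1 none of the 13 was more than 0.16 above the Flox mean. After cyclic loess 10 of the 13 stayed above 0, with a median of 0.24.

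*Mmp2*, gelatinase A, which stromal cells secrete, read 5.07, 6.33 and 5.81 on LIRKO arrays, against 5.02, 4.97 and 5.02 on Flox arrays. LIRKO 2 and LIRKO 3 stood apart and LIRKO 1 lay just above the highest Flox array. The difference was 0.74 (SE 0.30, adjusted p = 0.237 from limma), and -0.08 on its other probe set. *Mmp12*, the elastase of macrophages, named after its values were seen, read 5.66, 5.83 and 6.28 on LIRKO arrays, against 5.50, 5.60 and 5.55 on Flox arrays. *Mmp14*, the membrane protease that activates the *Mmp2* product, read 7.76, 8.06 and 7.94 on LIRKO arrays, against 7.68, 7.75 and 7.64 on Flox arrays, a difference of 0.23 (95% interval -0.06 to 0.53). *Mmp9*, gelatinase B, a product of leukocytes, read 6.43, 7.18 and 6.98 on LIRKO arrays, against 6.43, 6.50 and 6.44 on Flox arrays. LIRKO 1 lay at the lowest Flox value of *Mmp9*, and LIRKO 2 and LIRKO 3 lay above all Flox arrays. *Mmp10*, stromelysin 2, was at 3.14, 3.79 and 3.71 on LIRKO arrays and at 3.11, 3.08 and 3.06 on Flox arrays.

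The differences of the 3 TIMPs lay between -0.14 and 0.13. *Timp1*, which is induced in fibrosis and inflammation, read 9.39, 9.09 and 9.40 on LIRKO arrays, against 9.39, 9.36 and 9.53 on Flox arrays, a difference of -0.14 (95% interval -0.45 to 0.18). That sign turned to 0.21 after quantile normalization and 0.32 after cyclic loess, and *Timp1* was 0.51 higher than probe sets of like level. *Timp2*, which also takes part in the activation of the *Mmp2* product, read 7.28, 7.12 and 7.73 on LIRKO arrays, against 7.25, 7.36 and 7.59 on Flox arrays, a difference of -0.03 that turned to 0.05 and 0.03 under the same scalings. Its dim probe set 161515_i_at had a difference of 1.38 with LIRKO 2 and LIRKO 3 high. *Timp3*, the inhibitor that stays bound to matrix, read 7.38, 7.23 and 7.18 on LIRKO arrays, against 6.81, 7.14 and 7.45 on Flox arrays, a difference of 0.13 (95% interval -0.30 to 0.56). The groups overlapped for all 3 TIMPs.

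Among the ADAMs, *Adam28*, a membrane protease known from lymphocytes and epithelia, read 9.77, 9.36 and 9.44 on LIRKO arrays, against 10.24, 10.42 and 9.88 on Flox arrays. Each LIRKO array lay below each Flox array. The difference was -0.66 (SE 0.19, adjusted p = 0.237 from limma) and -0.41 on LIRKO 1, and it was -0.01 against probe sets of like level and -0.10 after cyclic loess. *Adam5*, a gene of the germ cell group of ADAMs, read 9.44, 11.36 and 11.02 on LIRKO arrays, against 9.20, 9.50 and 9.31 on Flox arrays (162388_r_at). Its difference was 1.27 (SE 0.47, adjusted p = 0.237 from limma), with 0.10 on LIRKO 1, and its dim probe set had 0.20. *Adam3*, its neighbour in the RefSeq annotation and likewise a gene of germ cells, chosen after its values were seen, differed by 0.45.

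*Adam11*, an ADAM without protease activity known from brain, read 7.54, 7.37 and 7.27 on LIRKO arrays, against 7.10, 7.19 and 6.96 on Flox arrays. Each LIRKO array was above each Flox array, LIRKO 1 most, by 0.46, and the mean difference was 0.31 (adjusted p = 0.238 from limma). *Adamts1*, the only ADAMTS measured, read 2.77, 3.16 and 3.40 on LIRKO arrays, against 2.81, 2.74 and 2.67 on Flox arrays, and was dim, with LIRKO 1 inside the Flox values. *Adam9*, a sheddase chosen after its values were seen, read 6.88, 5.76 and 6.05 on LIRKO arrays, against 7.01, 6.71 and 7.24 on Flox arrays, with LIRKO 1 inside the Flox values. *Adam10* and *Adam17*, the sheddases that release growth factors and cytokines, were also chosen after their values were seen and differed by 0.08 and 0.42, and by 0.10 and 0.05 on LIRKO 1. Over the 16 ADAMs the median was 0.08, with 11 above and 5 below Flox.

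Several of the largest positive differences were read by probe sets of a particular kind. The platform gives IDs ending in _r_at to probe sets for which some design rules were dropped. Over all 901 such probe sets, 707 were above 0, with a median of 0.26, and by array it was -0.04 for LIRKO 1, 0.41 for LIRKO 2 and 0.38 for LIRKO 3. Of the 6 genes of this report read by them, 5 were above 0, among them *Col1a2*, *Adam5* and *Adam3*. Over all 1505 probe sets with ID numbers of 161000 or above the median was 0.18, and 1130 were above 0. The 8 genes read by such IDs had a median of 0.51, with 7 above 0, and 0.08 on LIRKO 1; the other 73 genes had 0.10, with 48 above 0. This split was made after the data were seen, and its part in the result was not tested. For 25 of the 81 genes more than 1 probe set was on the array.

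**Figure D4:**
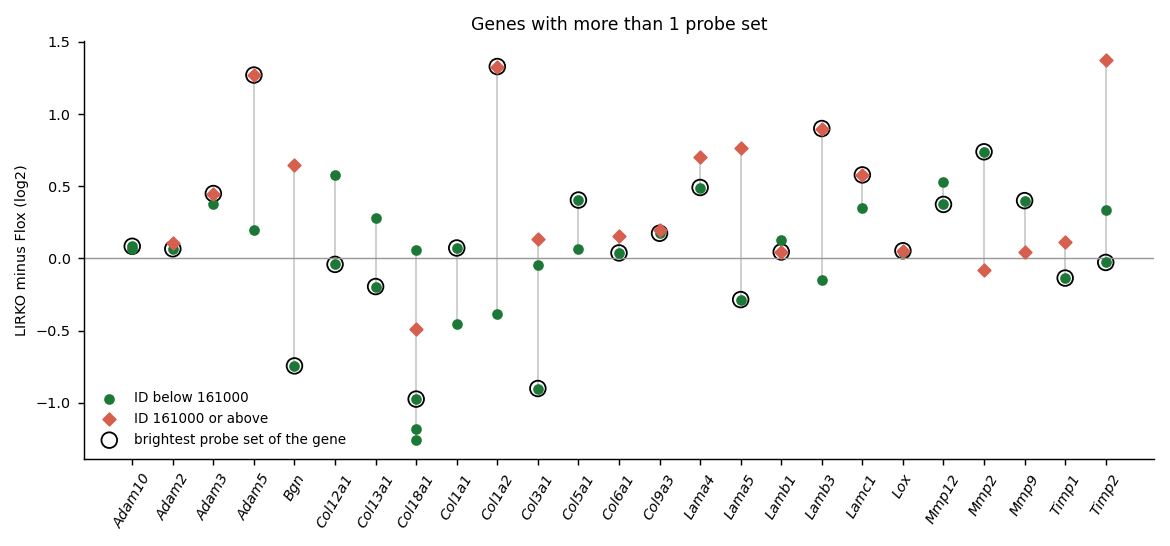
Difference, LIRKO minus Flox (log2, vertical axis), of each probe set of the 25 genes that have more than 1, with green circles for ID numbers below 161000, red diamonds for those of 161000 or above and black rings for the brightest probe set of the gene. The probe sets of *Col1a2* (1.33 and -0.38), *Bgn* (-0.74 and 0.65) and *Timp2* (-0.03 to 1.38) spread widely.

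The Flox pools also differed from each other in part of the matrix genes. Flox 1 held the lowest of the 3 Flox values for 39 of the 81 genes (48.1%, against 36.1% of all genes) and for 24 of the 37 that were not dim (64.9%, against 33.2% of all genes not dim). *Dcn*, *Bgn*, *Col4a2*, *Timp3* and *Col14a1* were among these 24. Of the 44 dim genes, 15 were lowest on Flox 1 (34.1%). Flox 1 also held the lowest Flox value for 10 of the 12 Kupffer cell and leukocyte markers and 9 of the 11 endothelial markers. It did so for only 3 of 14 stellate cell and fibroblast markers and 1 of 10 hepatocyte markers. Of the 5 cholangiocyte markers, 4 of them dim, 0 were lowest on Flox 1. The matrix lists described below were mixed. Flox 1 was lowest for 9 of 25 other matrix glycoproteins and proteoglycans, 2 of 10 collagen folding and crosslinking genes and 4 of 18 matrix receptors. For TGF-beta signalling it was 17 of 26, for other matrix-degrading proteases and inhibitors 8 of 16, and for the plasminogen system and serpins 2 of 10. The mean level of the Kupffer cell and leukocyte markers was 7.21, 6.78 and 7.10 on LIRKO arrays and 6.75, 7.15 and 7.12 on Flox arrays, and that of the endothelial markers was 7.17, 6.96 and 7.09 on LIRKO arrays and 6.84, 7.17 and 7.15 on Flox arrays. For the stellate cell and fibroblast markers it was 6.26, 6.77 and 6.54 on LIRKO arrays and 6.25, 6.45 and 6.23 on Flox arrays. Of 20 such markers listed, 14 were measured by a probe set with 1 symbol, and 7 of the 14 were dim. *Lrat* and *Ngfr* were among those not measured. The 14 markers differed by -1.03 to 1.97, with a median of -0.03 on LIRKO 1. The count was made after the data were seen, and the part of these cells in the matrix values was not tested. With Flox 1 left out, 0 of the 81 genes were called, and *Timp3* turned to -0.03.

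**Figure D5:**
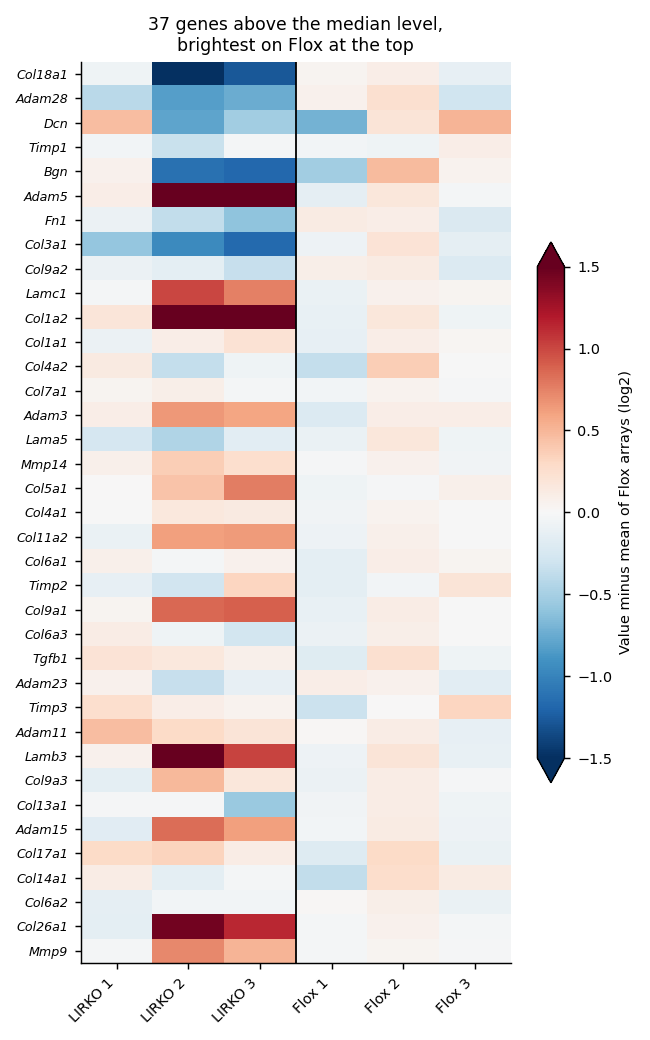
Value of each array minus the mean of the Flox arrays (log2, colour, which saturates at 1.5 above and below) for the 37 genes that were not dim, with LIRKO arrays left and Flox arrays right of the black line. LIRKO 2 and LIRKO 3 share the strong colours, Flox 1 is blue for *Dcn*, *Bgn*, *Col4a2*, *Col14a1* and *Timp3*, and *Col3a1* is blue on all 3 LIRKO arrays.

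Other genes of matrix turnover were taken from lists, and none of their measured members passed limma at an adjusted p under 0.05 in either direction. Of 10 genes for the folding, processing or crosslinking of collagen 6 were above and 4 below Flox, with a median of 0.03. *Serpinh1*, the collagen chaperone Hsp47, read 6.89, 6.73 and 6.41 on LIRKO arrays and 6.47, 6.71 and 6.57 on Flox arrays. *Bmp1*, the protease that cuts the C-propeptide of fibrillar procollagens, read 8.49, 8.02 and 8.38 on LIRKO arrays and 8.77, 8.78 and 8.66 on Flox arrays. Each LIRKO array was below each Flox array (-0.44), as for 16.7% of all genes. The difference of *Bmp1* from probe sets of like level was -0.16. Of 25 other matrix glycoproteins and proteoglycans 15 were above and 10 below Flox (median 0.05). Among them *Vtn*, vitronectin, which hepatocytes secrete into plasma, read 12.12, 10.32 and 10.48 on LIRKO arrays and 12.63, 12.45 and 12.44 on Flox arrays (-1.53). The difference of *Vtn* was -0.88 from probe sets of like level, -0.68 after cyclic loess and -0.39 on LIRKO 1 alone. *Hspg2*, the basement membrane proteoglycan perlecan, read 8.62, 9.47 and 9.47 on LIRKO arrays and 8.30, 8.58 and 8.38 on Flox arrays (0.76).

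The 18 integrins and other matrix receptors had a median of -0.02, with 9 above and 9 below Flox. *Itga5*, the alpha chain of the fibronectin receptor, read 6.03, 5.80 and 5.84 on LIRKO arrays and 6.33, 6.56 and 6.28 on Flox arrays (-0.50). The 26 genes of TGF-beta signalling had a median of 0.06, with 17 above and 9 below, and *Smad7*, the inhibitory Smad, read 6.90, 7.19 and 7.39 on LIRKO arrays and 6.68, 6.60 and 6.82 on Flox arrays (0.46). The 10 genes of the plasminogen system and serpins had a median of -0.11, with 5 above and 5 below. The 16 other matrix-degrading proteases and inhibitors had a median of -0.29, with 6 above and 10 below, and many of these are secreted by hepatocytes. Their median difference from probe sets of like level was -0.05, and their median on LIRKO 1 alone was 0.06. *Itih3* and *Itih4*, heavy chains and relatives of the inter-alpha-trypsin inhibitor that bind hyaluronan or circulate in plasma, differed by -1.56 and -1.55, and read 12.02 and 10.96 on LIRKO 1, below all Flox arrays, whose lowest values were 12.41 and 11.37. The genes named in these lists were chosen after their values were seen.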

How the data were processed

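Liver RNA of LIRKO and Flox mice was measured on 6 arrays. The values deposited by the authors are on the log2 scale, after background correction, normalization and summary of probes by RMA (version not given in the sources used here). No source used here says whether the arrays were normalized as 1 batch, and none says that the pools of mice were otherwise independent, so p-values measure the spread between these arrays. The 12488 deposited probe sets included 66 array controls, which were left out, and 12422 were tested without a filter. Symbols came from the platform annotation, with 1 symbol for 10833 probe sets, several for 396 and none for 1193.

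The test of LIRKO against Flox was limma 3.58.1 in R 4.3.3 (lmFit, then eBayes), with Benjamini-Hochberg adjustment over all 12422 probe sets, after the fit was tested on simulated data. The members and lists were chosen with earlier results of these data known. Named genes were 20 genes of matrix biology, the 2 of smallest p in each role, the 3 highest and lowest on LIRKO 1 among genes not dim, and genes whose probe sets disagreed in sign; all other genes were named after their values were seen. Probe sets of like level were the same 1 of 10 groups by mean Flox level. Intervals are 95% intervals of limma, unadjusted. Alternatives were 3 scalings, a filter on dim probe sets, an intensity trend, a block for the replicate number, Bonferroni adjustment, the methods' t-test, other readings of a gene's probe sets, 20 level groups and leaving out arrays. Arrays hold no counts, and their number limits the precision. Promoters came from RefSeq (GRCm38.p6). Tables and figures used Python 3.11.15, numpy 2.4.6, pandas 2.3.3 and matplotlib 3.10.9.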

Additional observations from a re-analysis of the deposited data

How the results depend on the processing

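The absence of calls among the 81 genes held under every scaling, filter, variance model, test, adjustment and reading of probe sets tried, and depended on LIRKO 1. Leaving out 1 array gave 0 to 27 genes called higher and 0 to 7 called lower, and the 27 and 7 came without LIRKO 1. With LIRKO 2 and LIRKO 3 left out 1 gene, *Col5a2*, was called higher, and the median difference of the 81 genes was 0.01 in place of 0.10. With a block for the replicate number, 11 probe sets and none of the 81 genes were called, against 16 and none without it. Correlations were taken between the arrays' deviations from their group means. Same-numbered arrays had 0.32, 0.40 and 0.09, and other pairs ran from -0.37 to 0.17. No label says that the numbers pair mice. Over all probe sets 40 were called after cyclic loess, 5, 3 and 3 without Flox 1, 2 and 3, 2 and 3 without LIRKO 2 and LIRKO 3, 6095 of 12422 without LIRKO 1, and 90 with LIRKO 2 and LIRKO 3 both left out. With dim set below the 25th percentile, 20 genes were dim. After quantile normalization the sign turned for *Col4a2* (0.0086), *Dcn* (0.070), *Lox* (-0.069), *Timp1* (0.21) and *Timp2* (0.053), and after cyclic loess for *Col4a2* (0.033), *Dcn* (0.24), *Fn1* (0.049), *Lox* (-0.052), *Timp1* (0.32) and *Timp2* (0.031). With the probe sets of a gene averaged it turned for *Col12a1* (0.27), *Col13a1* (0.041), *Col1a1* (-0.19), *Lama5* (0.24) and *Timp2* (0.56). On LIRKO 1 alone it turned for *Acta2* (-0.31), *Bgn* (0.065), *Col1a1* (-0.092), *Col4a1* (-0.0033), *Col4a2* (0.14), *Dcn* (0.46), *Lox* (-0.18), *Mmp9* (-0.031) and *Sparc* (0.17). Leaving out 1 array at a time gave -0.19 to 0.083 for *Col12a1*, -0.28 to 0.085 for *Col4a2*, -0.025 to 0.17 for *Lox*, -0.21 to 0.10 for *Timp2* and -0.030 to 0.29 for *Timp3*. The causes were not tested. The number of arrays, the pooled mice and the dim signal of 44 genes limit what could be detected.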
